A study of Mus musculus with 7 samples.

Results

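The sites described here were cytosines that the submitters' annotation places in introns, outside CpG islands and island shores ("open sea"), at least 10 kb from the transcript start listed beside them. They made up 2292 of the 18189 sites in a table of 6 libraries, called the rescue table, and 2756 of the 21989 sites in a table of 3 libraries, called the knockdown table. Of these, 1526 sites were in both tables, which is 66.6% of the first set and 55.4% of the second, and the wild-type reads at the shared sites were identical. The choice used the annotation and the distance and no measured value.

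All libraries came from J1 mouse embryonic stem cells, grown in serum with leukemia inhibitory factor, and were made by reduced representation bisulfite sequencing. That assay cuts the genome with restriction enzymes, here with a double digest, and reads for each cytosine how many molecules were protected from bisulfite conversion by methylation. The question in the series title is how acetylation of UHRF1 by the acetyltransferase MOF bears on the upkeep of DNA methylation. Wild-type cells (2 libraries) and Uhrf1-/- cells (2 libraries) were the replicated groups. The wild-type rescue (1 library) was made from Uhrf1-/- cells that received a plasmid with tagged wild-type human UHRF1. The 3KR rescue (1 library) was made from the same knockout with human UHRF1 in which 3 lysines were changed to arginine (K667R, K668R and K670R), so both rescues also lacked the mouse gene. Each rescue was a single colony picked after hygromycin selection, so the colony and the transgene cannot be told apart. The Mof knockdown (1 library) was a stable knockdown in otherwise wild-type J1 cells as far as the labels say. Whether a group's libraries derive from separate cultures is not stated in the labels. Any p-value below therefore measures only the spread between libraries, which may be technical. Methylation at these sites cannot check the cell type, the knockout or the degree of knockdown.

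In mammals most CpG dinucleotides inside long introns are methylated, unlike those of CpG islands at promoters. UHRF1 binds the half-methylated CpGs that replication leaves behind and brings DNMT1, which methylates the new strand, so a cell that divides without it dilutes its methylation. Far open-sea introns belong to this bulk of maintained methylation, away from promoters and islands.

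The 2292 sites of the rescue table lay 10006 to 333291 bases from the listed start, with a median of 22122.5 bases. RefSeq gene spans of the same build (GRCm38.p6, which is mm10) contained 2146 of them, in 689 genes. The other sites lay in no RefSeq gene span, although the submitters' annotation calls them intronic. A gene held a median of 2 sites, 214 genes held 1, and Gse1 held the most with 22. The knockdown sites reached 499106 bases from the start, and 2537 of 2756 lay in 761 genes. Neighbouring sites of the class no more than 300 bases apart were joined into loci, which gave 932 loci in the rescue table and 1077 in the knockdown table. The 145 loci with at least 3 sites and at least 30 summed reads in every library of the rescue table, covering 735 sites, and the 211 such loci of the knockdown table, covering 1052 sites, are described below by the percent of methylated reads summed over their sites. One read can cover several sites of a locus, so summed reads are not independent molecules, and intervals on them cover counting error only and are too narrow. An intermediate level can come from a mixture of cells or alleles or from partly methylated molecules, which these counts do not tell apart.

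The sequence of 1 such place could be printed, since 3 of the sites fall in the RefSeq promoter window of the predicted gene Gm42326, inside the span of Man1c1, a Golgi mannosidase gene (GRCm38.p6, chr4:134591954-134592253, plus strand). It is shown to give the DNA around measured CpGs, and was chosen because it could be read. It lies far from the listed start but next to the start of Gm42326 in RefSeq, which most of these sites do not. The capitals mark the CG dinucleotides that were measured, at bases 256, 261 and 285 of the window, with the cytosine read on the minus strand.
Gm42326 window: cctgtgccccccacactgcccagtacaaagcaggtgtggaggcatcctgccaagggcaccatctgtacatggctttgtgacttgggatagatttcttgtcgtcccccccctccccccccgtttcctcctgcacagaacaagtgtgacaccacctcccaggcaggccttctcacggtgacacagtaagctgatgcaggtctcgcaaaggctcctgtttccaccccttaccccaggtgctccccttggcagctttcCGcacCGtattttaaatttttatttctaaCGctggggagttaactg

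The 3 sites lay 24.4 kb from their listed start. Over the 3 sites, 31 of 51 reads (60.8%) and 53 of 64 (82.8%) were methylated in the wild-type libraries, and 8 of 30 (26.7%) and 6 of 42 (14.3%) in the Uhrf1-/- libraries. The wild-type rescue had 111 of 131 (84.7%), the 3KR rescue 2 of 19 (10.5%) and the Mof knockdown 16 of 22 (72.7%). Both Uhrf1-/- libraries and the 3KR rescue thus lay below both wild-type libraries, the wild-type rescue above them, and the Mof knockdown between them. Of all sites in RefSeq promoter windows, 558 of 558 in the rescue table and 613 of 615 in the knockdown table read CG.

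Depth limited what single sites could show. Reads over the far open-sea intron sites of the rescue table numbered 22717 and 51368 for wild type, 40968 and 32949 for Uhrf1-/-, 74002 for the wild-type rescue and 40403 for the 3KR rescue. A site had a median of 8, 18, 13, 10, 24 and 14 reads in that order, and of 10 reads in the Mof knockdown, which had 35217 reads in all. No listed site had fewer than 5 reads in a library. Wild-type library 1 was the shallowest, with at least 10 reads at 39.7% of the rescue sites.

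Without Uhrf1, far open-sea introns lost most of their methylation. Their mean level was 68.1% and 69.5% in the wild-type libraries and 13.8% and 14.1% in the Uhrf1-/- libraries, which is 68.8% ± 0.971 against 14.0% ± 0.204 (SD, n = 2 each). The difference was -54.8 percentage points, and 20.3% of the wild-type level was left. The share left was much the same elsewhere, at 20.1% at open-sea intron sites nearer than 10 kb, 19.4% at open-sea intergenic sites and 19.5% over all sites. The differences there were -50.1, -52.1 and -39.6 points. At the far sites the 2 groups did not overlap and were far apart beside the gap between libraries of a group. However, with 2 libraries a side the smallest p of an exact permutation test is 0.333. Sites over 80% methylated made up 49.5% ± 1.33 of the wild-type sites and 0.458% ± 0.154 of the Uhrf1-/- sites (SD, n = 2 each). Sites with no methylated read made up 13.4% and 9.82% in wild type and 45.5% and 47.9% in Uhrf1-/-. All 19 autosomes, with 45 to 319 sites each, were lower in Uhrf1-/-, by differences from -61.6 to -45.9 points.

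**Figure D1:**
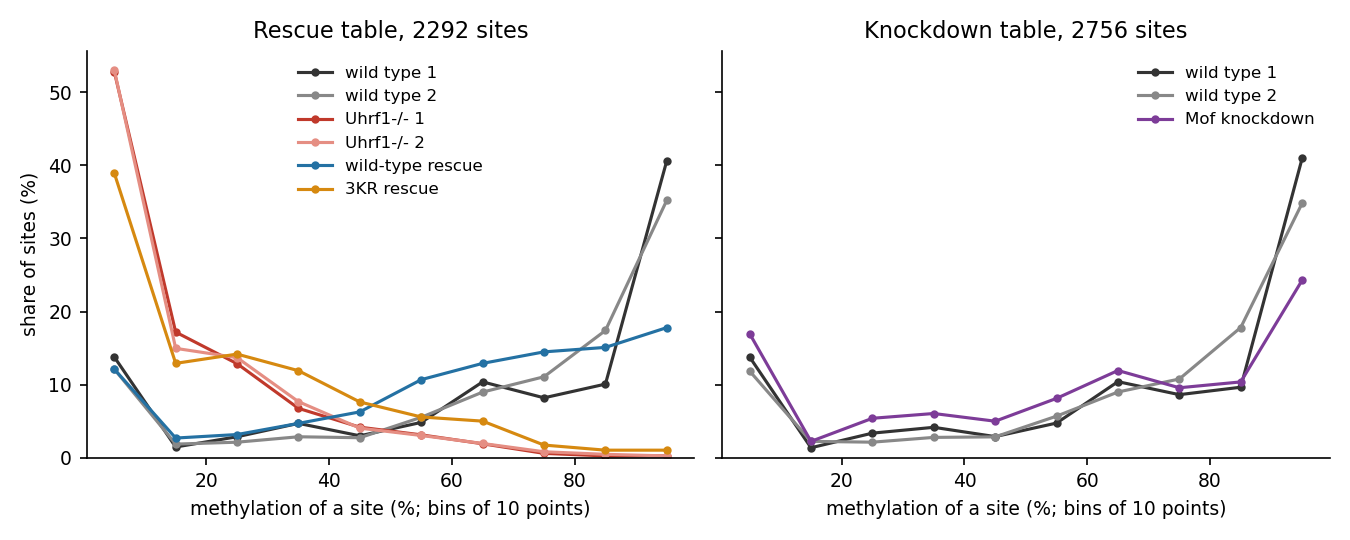
Share of the far open-sea intron sites (y axis, percent) in each bin of 10 percentage points of methylation (x axis), 1 line per library, for the rescue table (left) and the knockdown table (right). In the top bin lie 40.6% and 35.2% of sites in the wild-type libraries, 0.262% in each Uhrf1-/- library, 17.8% in the wild-type rescue, 1.05% in the 3KR rescue and 24.3% in the Mof knockdown.

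At single sites, 220 of 438 far intron sites fell in Uhrf1-/- (50.2%) and 0 rose by edgeR's quasi-likelihood test of methylated against unmethylated reads. A call needed a Benjamini-Hochberg adjusted p under 0.05 together with a change of 20 points or more. Over all 4603 sites with enough reads 32.4% fell and 0% rose. The test needs both methylated and unmethylated reads at a site. That held at 3917 of the 4603 sites and at 430 of the 438 far intron sites. At an unadjusted p under 0.05 the far intron numbers were 286 lower and 1 higher, beside 2007 and 15 of all 4603 sites. With limma on the percentages 200 far intron sites were called lower (45.7%, beside 29.3% of all sites). The count rests on every library, since edgeR called 0 sites when wild-type library 1, wild-type library 2 or Uhrf1-/- library 1 was left out (473, 221 and 251 lower at an unadjusted p under 0.05, in that order) and 105 when Uhrf1-/- library 2 was. Summed over loci, 140 of 157 far intron loci with enough reads in the 4 libraries fell (89.2%) and 0 rose by edgeR, and at an unadjusted p under 0.05 the numbers were 143 and 0. Of all 1501 loci with enough reads, 58.4% fell and 0% rose, and at an unadjusted p under 0.05 the edgeR numbers were 957 and 6. All 157 far intron loci and 1462 of the 1501 had both kinds of reads and could be tested. The median difference was -58.9 points at the far intron loci and -39.5 at all loci. The count of called loci was 112 to 186 when each library was left out in turn, with 161 to 234 loci then having enough reads.

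At 140 of the 145 described loci both Uhrf1-/- libraries lay below both wild-type libraries (96.6%), which held at 71.4% of all loci. The loci ran from 1.47% to 98.6% in wild type, with a median of 73.8%, and from 0% to 51.6% in Uhrf1-/-, with a median of 12.1%. Their differences ran from -88.0 to 0.0679 points. Only 6 of the 145 loci were under 20% in wild type, in Rbfox3, Asap2, Camkmt, Pakap, Gm34755 and Pard3. These were named after their values were seen.

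The falls of greatest size were spread over genes with unlike roles. An 8-site locus in Sox5, a transcription factor of cartilage and neural development (chromosome 6, 144757934 to 144758029, 23.9 kb from the start), measured 96.7% and 94.4% in wild type and 9.6% and 5.41% in Uhrf1-/- (edgeR adjusted p = 4.08e-08). The 2 groups of libraries were separated by most of the scale. A 3-site locus in Ppl, which encodes the desmosomal linker periplakin (chromosome 16, 5103207 to 5103219), measured 95.7% and 100% against 15.5% and 6.45% (edgeR adjusted p = 6.19e-07). A 5-site locus in Gse1, which encodes a coiled-coil protein found with histone deacetylases (chromosome 8, 120260453 to 120260561), measured 90.9% and 100% against 17.4% and 3.64% (edgeR adjusted p = 4.98e-06). Gse1 is also the gene with the most sites of this class.

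In Bcas3, named for its amplification in breast carcinoma (chromosome 11, 85615287 to 85615372, 6 sites), the levels were 88.9% and 96.6% against 5.68% and 11.3% (edgeR adjusted p = 7.74e-07). In Wwox, an oxidoreductase gene that spans a fragile site (chromosome 8, 115207691 to 115207774, 4 sites, 154.8 kb from the start), they were 100% and 81.0% against 7.87% and 5.00% (edgeR adjusted p = 8.24e-07). In Dgkh, a diacylglycerol kinase gene (chromosome 14, 78674461 to 78674544, 5 sites), they were 100% and 97.1% against 16.4% and 15.5% (edgeR adjusted p = 3.73e-07). In Atp2b2, which encodes a calcium pump of the plasma membrane (chromosome 6, 113778387 to 113778515, 5 sites), they were 70% and 91.2% against 0% and 4.35% (edgeR adjusted p = 4.98e-06). The value of 0% is 0 of 30 reads, which allows a level of up to 10% if summed reads are taken as independent. A locus in no RefSeq gene (chromosome 5, 33198914 to 33199039, 4 sites) measured 100% and 79.2% against 10% and 12.2% (edgeR adjusted p = 1.83e-05), a call that was lost without either Uhrf1-/- library (edgeR adjusted p = 0.0667 without library 1 and 0.0532 without library 2). At each of these 8 loci both Uhrf1-/- libraries were below both wild-type libraries, and the other 7 calls held without each library, with limma and with the replicate number as a block.

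At the loci that kept the most methylation without Uhrf1, both Uhrf1-/- libraries still lay below both wild-type libraries. A 6-site locus in Peli2, a ubiquitin ligase gene of innate immune signalling (chromosome 14, 48241701 to 48241762), measured 87.2% and 69.0% in wild type and 48.6% and 54.7% in Uhrf1-/-. It was not called (edgeR adjusted p = 0.170, 0.0934 to 0.487 under the alternatives). A 7-site locus in Atp11a, a phospholipid flippase gene (chromosome 8, 12788726 to 12788855), measured 91.6% and 90.2% against 36.3% and 58.3%, so the Uhrf1-/- libraries differed from each other by more than the wild-type libraries did (edgeR adjusted p = 0.00608). The call was lost without Uhrf1-/- library 1 (0.0667) or wild-type library 1 (0.0557). In Rbm26, an RNA-binding protein gene (chromosome 14, 105146782 to 105146864, 3 sites), the levels were 88.9% and 97.8% against 29.2% and 47.7% (edgeR adjusted p = 5.81e-04, 0.0507 without Uhrf1-/- library 1).

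In Arhgap10, a GTPase-activating protein gene (chromosome 8, 77408311 to 77408370, 5 sites), they were 85.5% and 97.9% against 25.7% and 40% (edgeR adjusted p = 2.73e-04, 0.0706 without Uhrf1-/- library 1). In Tmem104, a transmembrane protein gene (chromosome 11, 115207042 to 115207125, 7 sites), they were 51.9% and 88.3% against 38.1% and 27.7% (edgeR adjusted p = 0.0238). The wild-type libraries were far apart there, and the call was lost without either Uhrf1-/- library (0.142 and 0.231), without wild-type library 2 (0.471) and with limma (0.176). These 5 loci were picked for their high level in Uhrf1-/-, so that level is a description.

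Absolute loss grew with the wild-type level, while the share left was alike above the lowest bin. Sites were binned by wild-type library 2 and read against wild-type library 1, so that 1 library chose and the other measured. The 1206 sites at 80% or more measured 84.6% in wild-type library 1 and 17.5% in Uhrf1-/-, and the 587 sites from 50% to 80% measured 73.7% and 14.0%. The 178 sites from 20% to 50% measured 43.2% and 8.01%, and the 321 sites under 20% measured 9.97% and 4.07%. From the top bin down, Uhrf1-/- held 20.7%, 18.9%, 18.5% and 40.8% of the level in wild-type library 1.

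The colony with wild-type human UHRF1 measured 60.8% over the 2292 sites, which is 46.8 points above the Uhrf1-/- mean and -8.00 points from the wild-type mean of 68.8% ± 0.971 (SD, n = 2). At the 20 sites with 20 reads or more in every library the difference from wild type was -3.63 points, and at the 386 sites with 10 or more it was -8.17. Measured on class means, 85.4% of the loss was made up, beside 88.7% at open-sea intron sites nearer than 10 kb, 86.6% at open-sea intergenic sites and 90.2% over all sites. The difference between these shares was not tested, since the rescue has 1 library. All 19 autosomes were above Uhrf1-/- (by 36.9 to 53.8 points) and below wild type (differences from -12.8 to -0.839 points).

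The rescue lay short of wild type at the sites that were highly methylated in wild type. In the rescue 31.1% of sites were over 80% methylated, against 49.5% ± 1.33 in wild type (SD, n = 2), while sites with no methylated read made up 9.38% against 13.4% and 9.82%. In the bins set by wild-type library 2, the rescue measured 74.4% at sites of 80% or more, where wild-type library 1 measured 84.6%, and 64.3% against 73.7% from 50% to 80%. From 20% to 50% both measured 43.2%, and under 20% the rescue measured 13.3% against 9.97%. As shares of wild-type library 1, these are 87.9%, 87.3%, 99.9% and 133%. The order of high sites below and low sites above wild type was thus present with a separate wild-type library as the measure.

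Single-library groups were compared by size alone, at sites with 10 reads or more per library. In the wild-type rescue 856 of 1021 sites lay at least 20 points above the Uhrf1-/- mean (83.8%) and 1 below, beside 61% higher and 0.122% lower over all sites. It lay at least 20 points below the wild-type mean at 190 of 796 sites (23.9%) and above it at 66 (8.29%), beside 17% and 8.56% over all sites. The same measure between the 2 wild-type libraries gave 111 of 821 sites lower (13.5%) and 137 higher (16.7%) in library 2, with 9.07% and 13.3% over all sites. Between the Uhrf1-/- libraries it gave 136 of 1102 lower (12.3%) and 129 higher (11.7%), with 7.55% and 8.41% over all sites. Sites below wild type in the rescue were more frequent than differences between replicates in either direction, and sites above were less frequent, which was not tested. The measures differ, since the rescue was set against a mean of 2 libraries and each replicate against 1. Against wild-type library 1 alone, 259 of 860 sites were lower (30.1%) and 107 higher (12.4%), beside 18.7% and 12.1% over all sites. The 12.4% lay within the range of the replicate shares. Against wild-type library 2 alone, 537 of 1766 were lower (30.4%) and 149 higher (8.44%), beside 22.4% and 9.87% over all sites. No test with a spread of its own exists for a single library. With the spread borrowed from the replicated groups, edgeR called 40 sites higher than Uhrf1-/- (395 at an unadjusted p under 0.05) and 0 different from wild type (34 lower and 14 higher unadjusted).

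Locus by locus, the wild-type rescue was above both Uhrf1-/- libraries at 141 of 145 loci (97.2%, beside 82.1% of all loci). It was below both wild-type libraries at 82 loci (56.6%, beside 40.4% of all loci) and above both at 20 loci (13.8%, beside 28.2%). It was at least 20 points below the wild-type mean at 28 loci (19.3%, beside 11.6% of all loci). It was at least 20 points above at 7 (4.83%, beside 5.68% of all loci).

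Among loci short of wild type, a 6-site locus in Fsd1l (chromosome 4, 53680846 to 53680958) measured 70.8% and 88.3% in wild type, 4.65% and 5.08% in Uhrf1-/-, and 21.5% with wild-type UHRF1 (Wilson 95% interval 14.4% to 30.9%). Hydin, which encodes a protein of motile cilia (chromosome 8, 110521984 to 110522067, 5 sites), measured 62.5% and 73.0% in wild type, 4.84% and 0% in Uhrf1-/- (0 of 49 reads, which allows up to 6.12%), and 18.3% in the rescue (12.3% to 26.3%). The Ppl locus stood at 44.2% and the Atp11a locus at 47.1% in the rescue, below all wild-type values given above. At Atp11a the rescue lay between the 2 Uhrf1-/- libraries. At all 4 loci the rescue stayed below both wild-type libraries.

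Other loci passed the wild-type level. A 3-site locus in Trpm1, a cation channel gene of the retina (chromosome 7, 64265841 to 64265896), measured 33.3% and 52.7% in wild type, 26.8% and 11.6% in Uhrf1-/-, and 84.3% with wild-type UHRF1 (Wilson 95% interval 75.3% to 90.4%). Prkca, which encodes protein kinase C alpha (chromosome 11, 108228202 to 108228260, 3 sites), measured 59.6% and 73.1%, 3.28% and 8.33%, and 96.6% (88.5% to 99.1%). Kir3dl2, a gene of the killer immunoglobulin-like receptors on chromosome X (136497587 to 136497708, 8 sites), measured 62.5% and 63.8%, 13.3% and 13.1%, and 89.7% (80.2% to 94.9%). Tmem104 measured 91.2%, which is 21.1 points above the wild-type mean but 2.91 above wild-type library 2 alone. All 8 of these loci were chosen as the extremes of the difference between rescue and wild type, so its size is a description.

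**Figure D2:**
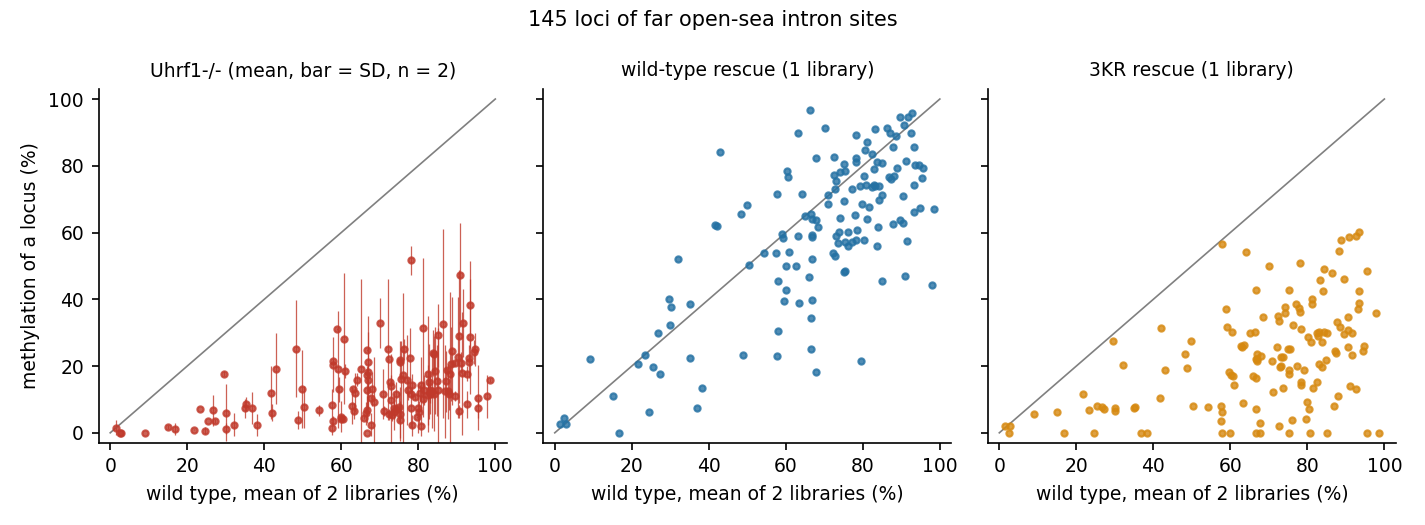
Methylation of the 145 loci (percent of summed reads) in Uhrf1-/- (left, mean with SD over 2 libraries), the wild-type rescue (middle, 1 library) and the 3KR rescue (right, 1 library), against the mean of the wild-type libraries on the x axis; the line marks equal levels. The Uhrf1-/- points lie along the bottom with a median of 12.1%, the wild-type rescue points lie mostly below the line with a median of 64.2%, and the 3KR points lie between with a median of 22.2%.

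In the colony with the 3KR protein, far open-sea introns were near the knockout level. The 3KR rescue measured 22.3% over the 2292 sites, which is -38.5 points from the wild-type rescue at 60.8%, -46.5 points from wild type and 8.30 points above the Uhrf1-/- mean of 14.0% ± 0.204 (SD, n = 2). It made up 15.1% of the loss, beside 14.1% at the nearer open-sea intron sites, 13.5% at open-sea intergenic sites and 14.1% over all sites. All 19 autosomes were below the wild-type rescue (differences from -50.1 to -28.6 points) and above Uhrf1-/- (by 2.86 to 16.2 points). Sites over 80% methylated made up 1.48%, and sites with no methylated read 32.8%, fewer than the 45.5% and 47.9% of the Uhrf1-/- libraries. In the bins set by wild-type library 2, from the top bin down, the 3KR rescue measured 28.4%, 22.3%, 12.6% and 4.85%, and lay above the Uhrf1-/- mean in each.

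At 1154 of 1584 sites the 3KR rescue lay at least 20 points below the wild-type rescue (72.9%) and at 16 above it (1.01%), beside 57% and 0.966% over all sites. It exceeded the Uhrf1-/- mean by 20 points or more at 205 of 891 sites (23.0%) and fell short of it by as much at 32 (3.59%), beside 15.8% and 2.8% over all sites, and beside 12.3% and 11.7% of far intron sites between the Uhrf1-/- libraries themselves. The higher count was 308 of 1268 sites without Uhrf1-/- library 2 and 275 of 1056 without library 1. With a borrowed spread, edgeR called 0 sites different between the rescues (220 lower at an unadjusted p under 0.05) and 0 between the 3KR rescue and Uhrf1-/- (19 higher and 1 lower unadjusted).

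Of the 145 loci, 143 had less methylation with the 3KR protein than with wild-type UHRF1, Atp11a had more, and a locus in Rbfox3 was at 0% in both. At 117 loci the gap was at least 20 points (80.7%, beside 56.5% of all loci). The 3KR rescue lay above both Uhrf1-/- libraries at 83 loci (57.2%, beside 48% of all loci) and below both at 16 (11.03%, beside 13.7%), and exceeded their mean by at least 20 points at 24 (16.6%, beside 9.99%).

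At the low end of this range, loci had few or no methylated reads in the 3KR rescue. The Atp2b2 locus measured 84.6% with wild-type UHRF1 and 0% with the 3KR protein (0 of 50 reads, which allows up to 6%), and the Sox5 locus 79.2% and 0% (0 of 48 reads, up to 6.25%). The Bcas3 locus measured 95.8% and 13.2%. In Cfap61, a gene of motile cilia (chromosome 2, 146196779 to 146196919, 6 sites), the levels were 62.2% and 73.3% in wild type, 10.3% and 10.8% in Uhrf1-/-, 82.3% with wild-type UHRF1 and 0% with the 3KR protein (0 of 36 reads, up to 8.33%). At these 4 loci the 3KR rescue was within a few points of its Uhrf1-/- libraries or below them, while the wild-type rescue was far above them. The Dgkh locus, at 67.1% in the wild-type rescue, was also at 0% in the 3KR rescue (0 of 48 reads, up to 6.25%), below both of its Uhrf1-/- libraries. These limits take summed reads as independent molecules, so true levels could be higher than they allow.

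Tll2, a tolloid-like metalloprotease gene, had 2 loci in this group. One (chromosome 19, 41190391 to 41190550, 8 sites) measured 76.6% and 68.4% in wild type, 6.76% and 4.44% in Uhrf1-/-, 82.5% with wild-type UHRF1 and 1.97% with the 3KR protein. The other (chromosome 19, 41102025 to 41102164, 6 sites) measured 71.4% and 79.2%, 0% (0 of 73 reads, up to 4.11%) and 7.89%, 78.6%, and 0% in the 3KR rescue (0 of 35 reads, up to 8.57%). Along the whole gene, 19 sites averaged 69.98% ± 1.41 in wild type, 7.33% ± 3.83 in Uhrf1-/- (SD, n = 2 each), 70.4% with wild-type UHRF1 and 1.73% with the 3KR protein. Among the 20 genes with at least 10 sites this was the lowest 3KR level.

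At the other end, the 3KR rescue kept or regained more than the class did. An 11-site locus in Pced1b (chromosome 15, 97284966 to 97285046) measured 93.0% and 92.2% in wild type, 16.1% and 19.3% in Uhrf1-/-, 89.8% with wild-type UHRF1 and 59.1% with the 3KR protein (Wilson 95% interval 51.6% to 66.2%). It also gave Pced1b the highest 3KR level of the 20 genes, 62.8% over 11 sites. Svopl, a gene of the transporter-like SVOP family (chromosome 6, 37988604 to 37988640, 5 sites), measured 92.9% and 93.7%, 22.8% and 22.0%, 85.7%, and 60.2% in the 3KR rescue (49.8% to 69.8%). Gpc5, a heparan sulfate proteoglycan gene of the glypicans (chromosome 14, 115116063 to 115116160, 6 sites), measured 72.7% and 55.6%, 17.3% and 14.7%, 71.4%, and 54.3% (38.2% to 69.5%).

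The Gse1 locus named above measured 76.5% with wild-type UHRF1 and 48.6% with the 3KR protein (33.0% to 64.4%). A second Wwox locus (chromosome 8, 115296787 to 115296908, 5 sites, 243.9 kb from the start) measured 93.3% and 83.0% in wild type, 0% and 35.0% in Uhrf1-/-, 76.9% with wild-type UHRF1 and 54.5% with the 3KR protein. The 0% there was 0 of 30 reads, which allows up to 10%. At these 5 loci the 3KR rescue was above both Uhrf1-/- libraries and below the wild-type rescue. They were chosen for their distance from the knockout.

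**Figure D3:**
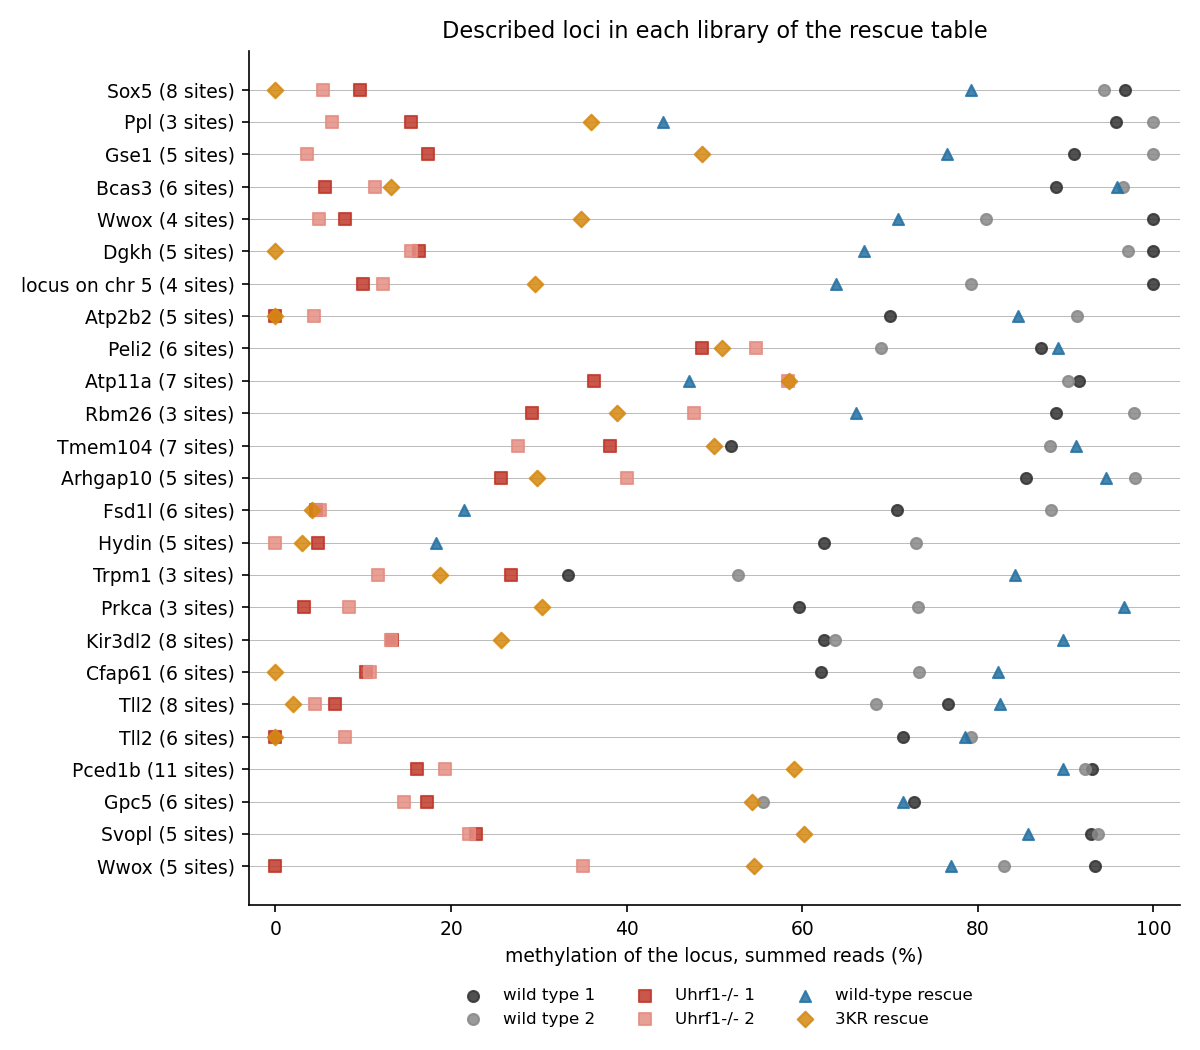
Methylation (x axis, percent of summed reads) of the named loci of the rescue table, 1 row per locus with its gene and number of sites, 1 symbol per library. Circles (wild type) lie right and squares (Uhrf1-/-) left at nearly every locus; the 3KR diamonds run from 0% at Sox5, Dgkh, Atp2b2, Cfap61 and one Tll2 locus to 60.2% at Svopl.

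In the genes with the most sites, Uhrf1-/- was far below wild type and the wild-type rescue far above Uhrf1-/-. The 3KR rescue lay above Uhrf1-/- in Gse1, Wwox and Sox5 and below it in Tll2, described above. Over its 22 sites Gse1 averaged 69.2% ± 1.24 in wild type, 11.9% ± 8.37 in Uhrf1-/- (SD, n = 2 each), 64.3% with wild-type UHRF1 and 22.8% with the 3KR protein. Wwox, with 20 sites, averaged 76.7% ± 11.4, 12.7% ± 3.11 (SD, n = 2 each), 76.9% and 35.3%. Sox5 averaged 84.3% ± 1.61, 11.8% ± 1.34 (SD, n = 2 each), 71.7% and 16.0% over 18 sites. Of the 20 genes with at least 10 sites, Bcas3 had the highest level in the wild-type rescue, 91.3%. In wild-type library 1 those 20 genes ran from 40.1% (Exoc6b, an exocyst subunit) to 93.6% (Pced1b), with a median of 77.3%. In the 3KR rescue their median was 23.5%.

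The knockdown of Mof left far open-sea introns at 57.7% over 2756 sites, against 68.1% and 69.4% in the wild-type libraries (68.8% ± 0.871, SD, n = 2). The difference was -11.01 points, so 84.0% of the wild-type level was there, and the value lay below both wild-type libraries. That share was 81.9% at open-sea intron sites nearer than 10 kb, 84.4% at open-sea intergenic sites and 82.8% over all sites. The differences there were -11.6, -10.3 and -8.74 points. The median far intron site was at 66.7% against 80% and 80.9%. Sites over 80% methylated made up 31.9% against 49.2% ± 1.69 (SD, n = 2), and sites with no methylated read 16.3%. All 19 autosomes, with 51 to 430 sites each, were lower, by differences from -16.6 to -5.35 points.

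In bins set by wild-type library 2, the Mof knockdown was lower than wild-type library 1 throughout. It measured 74.3% against 84.3% at the 1450 sites of 80% or more, 59.1% against 73.9% at the 702 sites from 50% to 80%, 34.8% against 46.2% at the 215 sites from 20% to 50%, and 6.35% against 9.80% at the 389 sites under 20%. The largest of these 4 differences, -14.8 points, was in the bin from 50% to 80%, and the share kept was 88.2%, 79.9%, 75.4% and 64.8% from the top bin down.

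The Mof knockdown lay at least 20 points below the wild-type mean at 186 of 715 sites (26.0%) and above it at 30 (4.20%), beside 21.2% and 4.34% over all sites. Between the 2 wild-type libraries of this table, 123 of 962 far intron sites were at least 20 points lower in library 2 (12.8%) and 153 higher (15.9%), with 8.91% and 13.9% over all sites. Lower sites were thus a larger share than between replicates, and higher sites a smaller one, which was not tested. The measures differ, since the knockdown was set against a mean of 2 libraries and the replicate against 1. Against wild-type library 1 alone, 210 of 760 sites were lower (27.6%) and 62 higher (8.16%), beside 21.7% and 7.54% over all sites. Against library 2 alone, 412 of 1357 were lower (30.4%) and 74 higher (5.45%), beside 26.7% and 5.58% over all sites. With the spread borrowed from the wild-type pair, edgeR called 0 sites (13 lower at an unadjusted p under 0.05).

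Of the 211 loci, the Mof knockdown lay below both wild-type libraries at 135 (64.0%, beside 51.8% of all loci) and above both at 25 (11.8%, beside 13.1%). It was at least 20 points below the wild-type mean at 44 loci (20.9%, beside 17.5% of all loci) and at least 20 points above at 0 (0.72% of all loci). Between the wild-type libraries, 11 loci were at least 20 points lower in library 2 and 15 higher.

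The locus furthest below wild type was in Prdm16, a transcriptional regulator of brown fat and blood stem cells (chromosome 4, 154400828 to 154400933, 4 sites, 52.4 kb from the start). It measured 94.7% and 93.5% in wild type and 9.68% in the Mof knockdown (3 of 31 reads, Wilson 95% interval 3.35% to 24.9%). Ccdc85c, a coiled-coil protein gene (chromosome 12, 108209512 to 108209607, 5 sites), measured 93.3% and 100% against 32.0% (20.8% to 45.8%). These 2 loci were nearly fully methylated in wild type.

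Rptor, which encodes the Raptor subunit of the growth kinase complex mTORC1 (chromosome 11, 119628876 to 119629018, 7 sites), measured 80% and 74.6% against 23.2% (14.1% to 35.8%). Over its 13 sites of this class Rptor averaged 73.8% ± 4.16 in wild type (SD, n = 2) and 32.6% in the knockdown. Pxylp1, a gene of a phosphatase acting on proteoglycan linkers (chromosome 9, 96838046 to 96838130, 6 sites), measured 88.9% and 72.8% against 30.6% (21.1% to 42.0%). All 4 loci lay below both wild-type libraries by more than the distance between those libraries.

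Loci above wild type differed by less. The 4 furthest above were in 1700060C16Rik (chromosome 6, 143600435 to 143600546, 40% and 75.7% in wild type and 76.8% in the knockdown), Fstl4, a follistatin-like gene (chromosome 11, 53081142 to 53081210, 47.6% and 53.1% against 68.6%), Peli2 (87.2% and 69.0% against 92.9%) and Scrg1 (chromosome 8, 57466273 to 57466416, 53.3% and 60.5% against 71.1%). At 1700060C16Rik the knockdown was barely above wild-type library 2, and the wild-type libraries were further apart than that. The 8 loci of the knockdown were chosen as extremes of this difference.

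**Figure D4:**
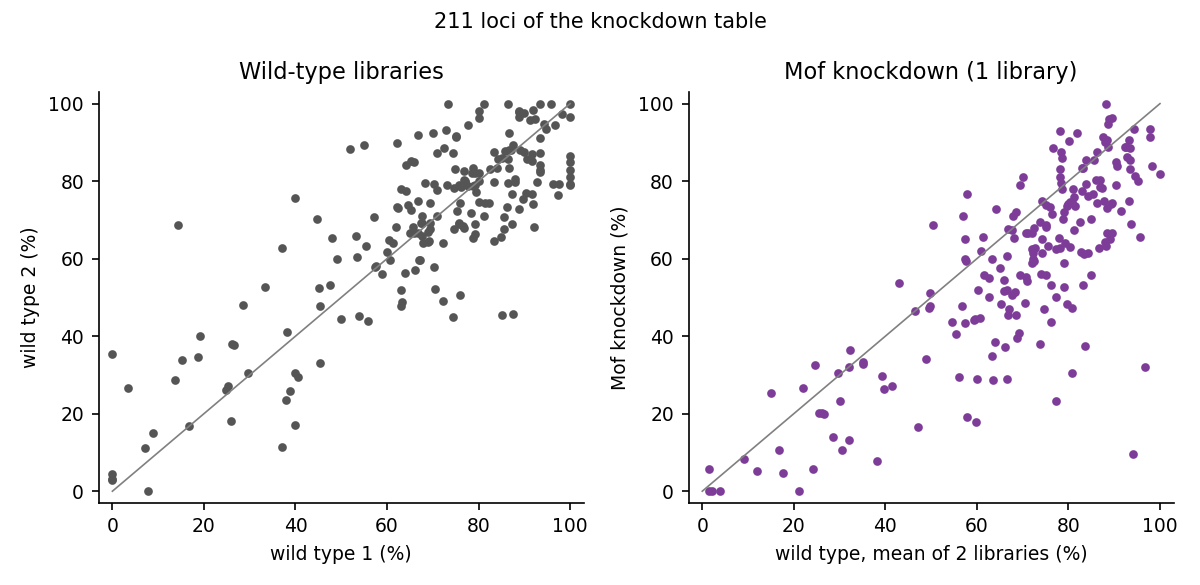
Methylation of the 211 loci of the knockdown table (percent of summed reads): wild-type library 2 against library 1 (left), and the Mof knockdown against the mean of the wild-type libraries (right); the line marks equal levels. The wild-type pair scatters on both sides of the line. In the knockdown 44 loci lie at least 20 points below it and 0 as far above. Prdm16, at 9.68%, lies furthest below the line.

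Among genes with many sites, Gse1 measured 62.6% ± 2.08 in wild type and 40.1% in the knockdown over 33 sites, and Slc39a11, a zinc transporter gene, 91.1% ± 3.20 and 70.3% over 19 sites (SD, n = 2). Bcl11b, a transcription factor gene of T cells and neurons, measured 92.2% ± 1.59 and 56.2% over 11 sites (SD, n = 2). Bcl11b was named after its value was seen. Wwox, with the most sites at 44, measured 79.2% ± 7.29 and 71.5%, and Dlgap2, with 18 sites, 78.2% ± 1.90 and 74.3% (SD, n = 2). Gse1, Slc39a11 and Bcl11b lay well below both wild-type libraries, whereas at Wwox and Dlgap2 the gap to the lower wild-type library was small.

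Gene groups relevant to stem cells and methylation held few of these sites. Of 32 long neuronal genes, 12 had sites in the rescue table (49 sites), with a median difference between Uhrf1-/- and wild type of -59.0 points and a range from -82.7 to -9.79. Over all 689 genes the median was -57.3 points, and 661 genes were below wild type and 15 above (95.9% below). Of the 4 neuronal loci tested, edgeR called 3 lower and 0 higher. A 7-site locus in Dlgap2, a scaffold gene of synapses (chromosome 8, 14113766 to 14114059), measured 85.6% and 90.2% in wild type, 14.8% and 8.26% in Uhrf1-/-, 62.5% with wild-type UHRF1 and 10.9% with the 3KR protein (edgeR adjusted p = 9.14e-07). A second locus of the gene (14116855 to 14116967, 6 sites) measured 87.9% and 79.7%, 28.7% and 18.9%, 81.0%, and 27.1% (edgeR adjusted p = 0.00129). Cacna1a, a calcium channel gene (chromosome 8, 84509375 to 84509526, 4 sites), measured 80.6% and 63.6%, 40% and 10%, 53.8%, and 25.6% (edgeR adjusted p = 0.0378).

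Rbfox3, which encodes the neuronal splicing factor NeuN (chromosome 11, 118744893 to 118745000, 6 sites), had the lowest wild-type level of the 4 loci tested. It measured 16.7% and 16.8% in wild type, 0% (0 of 119 reads, up to 2.52%) and 2.53% in Uhrf1-/-, 0% with wild-type UHRF1 (0 of 200 reads, which allows up to 1.5%), 0% in the 3KR rescue (0 of 47 reads, up to 6.38%) and 10.8% in the Mof knockdown. Its fall passed edgeR's test (adjusted p = 0.00723) but was under 20 points, so it was not called. The locus was weakly methylated in wild type and was not above the knockout in the wild-type rescue. Other genes of the list, with fewer reads, were also low. In wild type Dpp6 averaged 9.79% ± 13.8 over 2 sites and Ptprn2 27.3% ± 38.6 at 1 site (SD, n = 2 each). Both were at 0% in Uhrf1-/- and in both rescues. Kcnq1 averaged 31.2% ± 15.9 in wild type over 3 sites (SD, n = 2).

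Of 20 genes of the Wnt, TGF-beta and Notch pathways, 3 had sites (Lef1, Notch2 and Smad1, 14 sites), with a median difference of -66.7 points. The 1 locus tested, in the receptor gene Notch2 (chromosome 3, 98092981 to 98093083, 3 sites), fell by edgeR, from 100% and 79.1% to 21.6% and 20.4% (adjusted p = 2.45e-04), and measured 94.7% in the wild-type rescue, 46.2% in the 3KR rescue and 66.7% in the Mof knockdown. Of 18 genes of the methylation machinery, Dnmt3a had 1 site and Dnmt3b, which encodes a de novo methyltransferase, had 3. The Dnmt3b sites averaged 67.4% ± 8.46 in wild type, 13.1% ± 0.393 in Uhrf1-/- (SD, n = 2 each), 22.2% with wild-type UHRF1 and 16.7% with the 3KR protein, so the wild-type rescue lay closer to the knockout there. They had too few reads to enter the test. Of 20 imprinted genes only Kcnq1 had sites (3). Kcnq1 had also been put on the long neuronal list, so its sites are counted in both lists, here and in the knockdown table. Pluripotency, MOF complex, histone modifier, germline and fibroblast genes had 0 sites in the rescue table.

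In the knockdown table, 16 of the 32 neuronal genes had sites (70 sites), with a median difference of -12.1 points, 11 genes below wild type and 5 above. The 4 pathway genes with sites had a median of -13.6, with 3 below and 1 above. Over all 761 genes the median was -8.60 points, with 513 below and 200 above (67.4% below). A 14-site locus in Magi1, a scaffold gene of cell junctions (chromosome 6, 93938866 to 93938934), measured 87.2% and 88.0% in wild type and 91.3% in the knockdown. Opcml, a gene of a neural adhesion protein (chromosome 9, 27984543 to 27984675, 4 sites), measured 67.7% and 66.0% against 45.6%. Of 22 pluripotency genes 2 had sites. The 4 sites in Esrrb, an orphan nuclear receptor gene (chromosome 12, 86480795 to 86480950), formed a locus at 0% (0 of 30 reads, up to 10%) and 3.05% in wild type and 0% in the knockdown (0 of 46 reads, up to 6.52%). The 1 site in Nr5a2, also a nuclear receptor gene, was at 100% and 64.7% in wild type and 33.3% in the knockdown, with as few as 6 reads in a library. Of the methylation machinery, Dnmt3b measured 67.4% ± 8.46 in wild type (SD, n = 2) and 66.7% in the knockdown over 3 sites. The 1 site in Dnmt3a, with as few as 5 reads, was at 100% and 25% in wild type and 100% in the knockdown. The median differences of these lists were -25.2 and 18.4 points, each over 2 genes.

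Far open-sea intron sites had a higher mean level than nearer open-sea intron sites and open-sea intergenic sites in every library. The far minus near intron difference was 6.43 and 5.73 points for the wild-type libraries, 1.58 and 1.18 for Uhrf1-/-, 3.74 for the wild-type rescue and 2.62 for the 3KR rescue. Its mean was 3.55 ± 2.17 points (SD, n = 6 libraries), with 6 of 6 libraries higher (exact sign-flip permutation test over libraries, two-sided p = 0.03125, the smallest it can give, Benjamini-Hochberg adjusted over 2 comparisons 0.03125). Against open-sea intergenic sites the difference was 4.48 and 3.87, 1.501 and 1.44, 3.15, and 2.728 points, with a mean of 2.86 ± 1.23 (SD, n = 6, the same exact permutation p and adjusted p of 0.03125), and 6.24 points when reads were pooled over sites. The gap was widest in wild type and narrowest in Uhrf1-/-, where levels as a whole were low. The libraries share their sites, so the test compares these sets of sites over conditions and is not a test over independent genomes. The 6 signs are not independent of each other, since a gap between the site sets can recur in each library. The p-value thus adds little to the shared direction, and no conclusion is drawn from it. In the knockdown table the far minus near difference was 5.58 and 4.10 points in wild type and 5.38 in the Mof knockdown, and the far minus intergenic difference 3.66, 2.40 and 2.28. With 3 libraries the test cannot go below 0.25.

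Beyond 10 kb, levels without Uhrf1 changed little with further distance, while levels in the other libraries were higher in the furthest bin than in the nearest, except in wild-type library 2 of the knockdown table. In the rescue table the Uhrf1-/- libraries stayed between 12.7% and 15.6% in 4 distance bins from 10 kb to over 100 kb, and the 3KR rescue measured 21.5% in the first bin and 24.6% in the last. The wild-type libraries measured 66.9% and 69.99% from 10 to 20 kb and 78.4% and 73.8% at the 119 sites over 100 kb. The wild-type rescue measured 59.9% and 67.6% in those bins. Levels did not rise steadily between them, since the 283 sites from 50 to 100 kb measured 64.6% and 67.0% in wild type. The wild-type rescue measured 59.9% there. The sites over 100 kb lay in 35 genes. In the knockdown table the 147 sites over 100 kb measured 72.9% and 66.8% in wild type, against 65.5% and 68.2% from 10 to 20 kb, so the wild-type libraries did not share a direction there. The Mof knockdown measured 56.2% and 63.5% in those bins. No bin was tested.

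**Figure D5:**
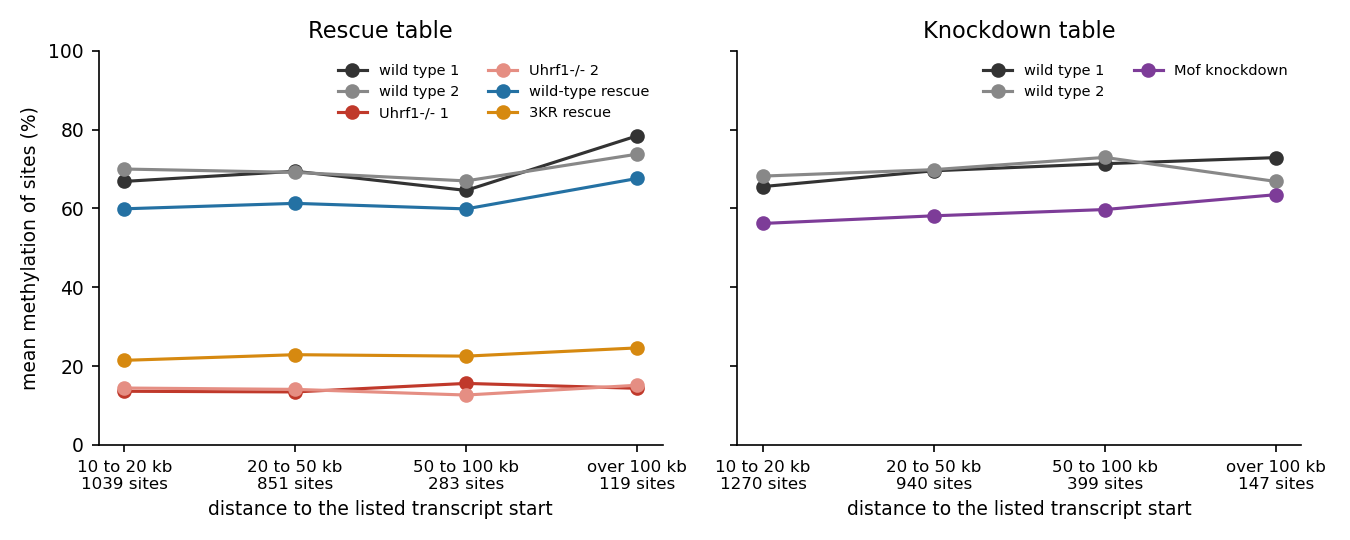
Mean methylation of far open-sea intron sites (y axis, percent) in 4 bins of distance to the listed transcript start (x axis, number of sites under each bin), 1 line per library, for the rescue table (left) and the knockdown table (right). In every bin of the rescue table both wild-type lines lie above the wild-type rescue, the rescue above the 3KR rescue, and the 3KR rescue above both Uhrf1-/- lines, while lines of the same group cross; the Mof knockdown is the lowest line in every bin of the knockdown table.

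Levels just inside and just outside the distance limit were within a point of each other in the knockout libraries and differed by more elsewhere, in opposite directions in the 2 tables. From 9 to 10 kb, 200 sites measured 62.8% and 66.3% in wild type, 14.2% and 13.9% in Uhrf1-/-, 57.4% with wild-type UHRF1 and 18.8% with the 3KR protein. From 10 to 11 kb, 146 sites measured 66.2% and 68.0%, 14.4% and 14.7%, 63.6%, and 23.8%. In the knockdown table the order was the other way, with 69.9% and 69.8% in wild type and 62.2% in the knockdown at 253 sites outside, and 63.3%, 64.0% and 51.3% at 163 sites inside.

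Neighbouring sites of a locus varied about as much as loci did. In wild-type library 2 the median SD between sites of a locus was 19.7 points and the SD between loci 22.9 points, and in Uhrf1-/- library 1 both were 11.3 points. In the wild-type rescue they were 19.5 and 23.1. Counting error at these depths enters both values and was not separated from them. It is larger in the first, since a single site has fewer reads than a locus. The likeness of the 2 values thus does not show that sites and loci truly vary alike.

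The authors' deposited table marks a larger share of far intron sites than of all sites as lower than wild type. The share marked higher was smaller than over all sites for the wild-type rescue and the Mof knockdown. It was slightly larger for Uhrf1-/- and the 3KR rescue. The counts here take q-values under 0.05 at a difference past 20 points. The authors' deposited table lists 1906 of 2292 sites lower in Uhrf1-/- than in wild type (83.2%, beside 61.3% of all sites). The authors' deposited table lists 10 sites higher (0.436%, beside 0.269% of all sites). For the 3KR rescue the authors' deposited table lists 1679 sites lower (73.3%, beside 53.5%) and 22 higher (0.960%, beside 0.935%). For the wild-type rescue the authors' deposited table lists 468 sites lower (20.4%, beside 13.5%) and 109 higher (4.76%, beside 6.54%). For the Mof knockdown the authors' deposited table lists 430 of 2756 sites lower (15.6%, beside 12.3%) and 36 higher (1.31%, beside 1.98%). All 4 lists share the same wild-type libraries.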

How the data were processed

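DNA methylation was measured in 7 libraries, described in 2 tables of single sites. Per the file headers, the authors gave counts of total, methylated and unmethylated reads for each site, a fraction of methylated reads (recomputed here as a percent from the counts), and for each group against wild type a p-value, a q-value and a percentage-point difference. Cutadapt, Trim Galore and BSMAP 2.73 with the build mm10 are named per the submitters' processing notes; the methylation caller and the statistical test used by the submitters are not given here. Column names were matched to the sample titles. A digit at the end of the wild-type rescue's column name is unexplained.

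Library levels are unweighted means over sites. Loci, and sites with 10 reads or more in the 4 libraries of the comparison, were tested with edgeR 4.0.16 (limma 3.58.1, R 4.3.3), with the spread taken over all 6 libraries of the rescue table (2 residual degrees of freedom) and adjustment over all sites or loci of the table. The steps were tested on simulated data. Python 3.11.15, numpy 2.4.6, pandas 2.3.3, scipy 1.17.1, statsmodels 0.14.6 and matplotlib 3.10.9 did the rest. Gene names come from RefSeq spans that contain a locus, since the listed starts carry transcript identifiers only.

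The sites, gene lists and tests were chosen with earlier results of these data known. Named loci were, for Uhrf1-/-, the 8 called with the largest fall and the 5 with the highest level left among those of at least 50% in wild type; for the wild-type rescue, the 4 furthest below and the 4 furthest above wild type; for the 3KR rescue, the 6 furthest below the wild-type rescue and the 5 furthest above Uhrf1-/-; for the Mof knockdown, the 4 furthest each way. Where a single library was set against a replicated group, it had to lie outside both libraries of that group. Loci of listed genes and the 5 genes with most sites were added; 1 of these genes is not reported here. The lists were pluripotency, methylation machinery, MOF complexes, histone modifiers, long neuronal, Wnt/TGF-beta/Notch, imprinted, germline and fibroblast genes. Intervals are Wilson 95% intervals, and the limit of a 0 is 3 reads out of the summed reads. That limit treats reads as independent, so it is too low where 1 read covers several sites. Alternatives changed the coverage minimum, the weighting, the distance limit, the tool, the replicate block and the libraries left in.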

Additional observations from a re-analysis of the deposited data

How the results depend on the processing

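No result changed its direction. The mean difference between Uhrf1-/- and wild type was -56.3 points on pooled reads and -43.0 over the 20 sites with at least 20 reads in every library. The wild-type rescue minus Uhrf1-/- difference was 48.6 on pooled reads, 47.6 with at least 10 reads, 39.4 with at least 20 reads, 47.6 beyond 20 kb and 47.8 beyond 50 kb, and its difference from wild type was -3.63 with at least 20 reads and -6.66 beyond 50 kb. The 3KR minus wild-type rescue difference was -32.7 with at least 20 reads. The 3KR minus Uhrf1-/- difference was 9.82 on pooled reads, 9.90 and 6.72 with at least 10 and 20 reads, and 9.03 and 8.82 beyond 20 and 50 kb. The Mof knockdown minus wild type difference was -9.54 on pooled reads and -9.18 and -9.05 with at least 10 and 20 reads. The far minus near intron difference was 2.87 to 3.49 points under its alternatives, and the far minus intergenic difference was 6.24 on pooled reads, 3.20 with a limit of 20 kb and 2.05 with a limit of 5 kb.

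edgeR called 768 of 2292 sites lower in Uhrf1-/- with no further coverage minimum, 12 of 28 with at least 20 reads, and 0 to 105 when each library was left out. With any number of sites per locus it called 496 of 641 loci. By size, at minimums of 5 and 20 reads, 1829 and 84 sites lay above Uhrf1-/- in the wild-type rescue (79.8% and 84.0%, beside 60.7% and 43.5% of all sites). Lower than in wild type were 647 and 20 (28.2% and 20.6%, beside 20.1% and 9.70%). In the 3KR rescue 581 and 13 were higher than in Uhrf1-/- (25.3% and 17.3%, beside 18.3% and 11.5%). In the Mof knockdown 866 and 21 were lower (31.4% and 22.6%, beside 25.7% and 14.7%). At 20 reads 506 were lower in the 3KR than in the wild-type rescue (75.5%, beside 56.4%). With borrowed spread these counts were 40 for the first and 0 for each of the other 4. Leaving out 1 library gave 259 to 537 for the wild-type rescue against wild type, 275 to 308 for the 3KR rescue against Uhrf1-/- and 210 to 412 for the Mof knockdown. These counts follow the number of sites that pass a minimum.

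The replicate number as a block gave 85 of 438 sites called (19.4%, beside 11.7% of all sites). By locus it gave 137 of 157 (87.3%, beside 57.7% of all loci). Samples with the same number did not deviate together (r = -0.0107 over 2292 sites), and the labels say nothing of a pairing. On the 4 libraries alone, without the block, edgeR called 197 sites (45.0%, beside 29.5% of all sites) and 138 loci (87.9%, beside 58.2% of all loci). The fit of loci was added after seeing the data.

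Depth of 8 to 24 reads at the median site leaves single sites coarse, and the 3 groups of 1 library have no replicate check.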
